A study of Mus musculus with 12 samples.

Results

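Milk is made by the luminal alveolar cells of the mammary gland, and 9 genes of that secretory programme were followed here in mouse mammary organoids treated with CHIR99021. They are the caseins Csn1s1, Csn1s2a, Csn2 and Csn3, the whey proteins Wap and Lalba, the fat globule protein Mfge8, and the iron- and siderophore-binding proteins Ltf and Lcn2. They were chosen by name, as rows of the deposited count table, and make up 9 of its 25210 genes. All 9 passed the filter on low counts, which kept 15316 genes.

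The organoids were primary mammary epithelial cultures in Matrigel, taken from virgin FVB/N females of 8-11 weeks, a mouse strain with no transgene or mutation named in the labels. Each of 3 animals gave 1 culture, and each culture was split over 4 treatments, which gives 12 libraries of bulk RNA in 4 groups of 3. The groups were the vehicle dimethyl sulfoxide (DMSO) and CHIR99021 at 1, 1.5 and 3 µM, all sampled on day 7. The titles of cultures 1, 2 and 3 also carry the tags med, min and max, which the labels leave unexplained, so the cultures may differ in more than the animal.

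CHIR99021 blocks the kinase GSK3, which marks β-catenin for degradation, and so drives WNT signalling. Milk protein genes are switched on in pregnancy and lactation when prolactin, acting with glucocorticoid, activates the transcription factor STAT5 in alveolar cells, with ELF5, NFIB and C/EBPβ as partners. Caseins form the micelles that carry calcium and phosphate, α-lactalbumin (Lalba) is the subunit that turns a galactosyltransferase into lactose synthase, and whey acidic protein (Wap) is the main whey protein of rodent milk. Ltf and Lcn2 starve bacteria of iron and are also granule proteins of neutrophils.

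Library totals ran from 10.1 to 24.5 M counts (M, mega-counts). Values are given as raw read counts or as CPM, counts per M counts on library sizes scaled by edgeR's TMM method, and group values as mean ± SD with n = 3. The WNT target Axin2 served as a check of the treatment and stood at 2.75 ± 0.491 CPM in DMSO and 83.9 ± 42.3 CPM at 3 µM. It is 1 of 5 listed WNT feedback targets, which did not all rise. At 3 µM Axin2 and Znrf3 rose, Lgr5 fell and 2 were not called (edgeR, adjusted p under 0.05). With the animal as a block 3 rose and 1 fell. Among all tested genes 29.9% rose and 27.7% fell at 3 µM (34.1% and 34.8% with the block). The median log2 change of the 5 was 1.27, while their sum was 213 ± 38.2 CPM in DMSO and 126 ± 51.3 CPM at 3 µM. Together the 9 genes held between 0.190% and 0.302% of the counts of a library. Culture 3 stood apart from the other two in DMSO, with 4309 Lalba counts against 232 and 245 in cultures 1 and 2, and results that rest on it are given with and without it.

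The 4 caseins sit in a cluster on chromosome 5, from 87666224 to 87932665 in GRCm38 (266442 bp), in the order Csn1s1, Csn2, Csn1s2a, Csn1s2b, Prr27, Odam and Csn3. Csn2 is on the minus strand, with its 3′ end 10050 bp beyond the end of Csn1s1, and the others are on the plus strand. The 3 genes between Csn1s2a and Csn3 were close to silent, with at most 12 counts of Csn1s2b, 8 of Prr27 and 5 of Odam in any library. The remaining members lie on other chromosomes, with Wap on chromosome 11 (6635482 to 6638637), Lalba on 15 (98480400 to 98482683), Ltf on 9 (111019292 to 111042766), Mfge8 on 7 (79133769 to 79149060) and Lcn2 on 2 (32384633 to 32387797).

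Promoters are shown because the caseins, all known targets of STAT5, moved in different directions. The 250 bases before the RefSeq start were available for 8 of the 9 members (RefSeq, GRCm38.p6) and not for Csn3. They were searched on both strands for the STAT5 motif TTCNNNGAA and for CTTTGA, a form of the TCF/LEF motif. The latter motif is bound by the factors through which β-catenin acts. The STAT5 motif occurred in Csn1s1 and Csn2 among the 8 windows, and in 7.02% of 32851 promoter windows of that length. The form CTTTGA occurred in none of the 8 and in 13.8% of all windows. Other forms of the TCF/LEF motif, such as CTTTGT, were not searched for or counted over all windows. CTTTGT can be read in the Csn1s1 window printed below and, on the other strand, in that of Csn1s2a. The 8 windows are therefore not shown to lack TCF/LEF motifs. A match is a stretch of letters and not a measured binding site, and a window without one says nothing about the factor. The STAT5 matches are given in capitals with 10 bases on each side. They lie at −100 to −92 of Csn1s1 (chr5:87666098-87666126, plus strand) and at −93 to −85 of Csn2 (chr5:87699500-87699528, minus strand). The Csn2 stretch lies inside an exon of another annotated Csn2 transcript (GENCODE M21), which starts upstream of the RefSeq start, and the Csn1s1 stretch lies outside annotated exons.
Csn1s1 site: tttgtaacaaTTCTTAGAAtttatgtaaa
Csn2 site: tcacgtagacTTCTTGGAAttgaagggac

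For comparison, the whole window of Csn1s1 (chr5:87665958-87666207, plus strand) is set beside those of Csn1s2a (chr5:87774200-87774449, plus strand), Lalba (chr15:98482722-98482933, minus strand, the 212 bases outside annotated exons) and Ltf (chr9:111019042-111019270, plus strand, the 229 bases outside annotated exons). Csn1s1 was the casein with most counts at 3 µM, and the other windows come from members with no STAT5 match. Members with no match went both ways at 3 µM, since Ltf and Lcn2 rose, Csn1s2a, Lalba and Mfge8 fell and Wap was not called. The Lcn2 window differs from the rest, since an annotated Lcn2 exon reaches its upstream edge and leaves 0 exon-free bases before it. Capitals again mark the STAT5 match.
Csn1s1 window: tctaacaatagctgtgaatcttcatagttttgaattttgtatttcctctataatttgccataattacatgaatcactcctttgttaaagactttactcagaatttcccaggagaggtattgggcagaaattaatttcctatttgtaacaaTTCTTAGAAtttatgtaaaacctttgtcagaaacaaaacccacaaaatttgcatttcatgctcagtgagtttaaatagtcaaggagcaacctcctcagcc
Csn1s2a window: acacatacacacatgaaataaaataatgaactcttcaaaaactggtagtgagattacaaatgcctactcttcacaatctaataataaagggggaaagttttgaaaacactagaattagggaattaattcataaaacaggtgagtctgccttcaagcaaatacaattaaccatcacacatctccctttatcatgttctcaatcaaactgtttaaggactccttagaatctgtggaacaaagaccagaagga
Lalba window: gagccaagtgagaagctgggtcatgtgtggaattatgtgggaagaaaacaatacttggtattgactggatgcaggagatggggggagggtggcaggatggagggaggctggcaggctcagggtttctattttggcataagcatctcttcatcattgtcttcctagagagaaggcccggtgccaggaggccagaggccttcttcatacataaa
Ltf window: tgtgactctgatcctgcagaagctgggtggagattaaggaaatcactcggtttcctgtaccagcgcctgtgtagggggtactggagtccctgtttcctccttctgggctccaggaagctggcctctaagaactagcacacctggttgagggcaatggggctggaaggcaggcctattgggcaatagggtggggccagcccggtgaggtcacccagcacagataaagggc

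The milk genes did not move as one group at 3 µM. Against DMSO, Ltf and Lcn2 rose and Lalba, Csn1s2a and Mfge8 fell, which is 5 of 9 called (edgeR's quasi-likelihood test, adjusted p under 0.05), with 57.5% of all tested genes called in that comparison, 29.9% higher and 27.7% lower. Each replicate number is an animal, and with the animal as a block Csn1s1 and Csn2 also rose and Csn3 also fell, so that 8 of 9 were called, 4 in each direction, against 68.9% of all genes (34.1% higher, 34.8% lower). Wap was the member that neither model called at 3 µM. The median log2 fold change of the 9 was −0.36, beside −0.03 over all tested genes. Both shares are near or not far above the background, so the count itself says little about the milk genes. Their sizes and directions are described below.

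**Figure D1:**
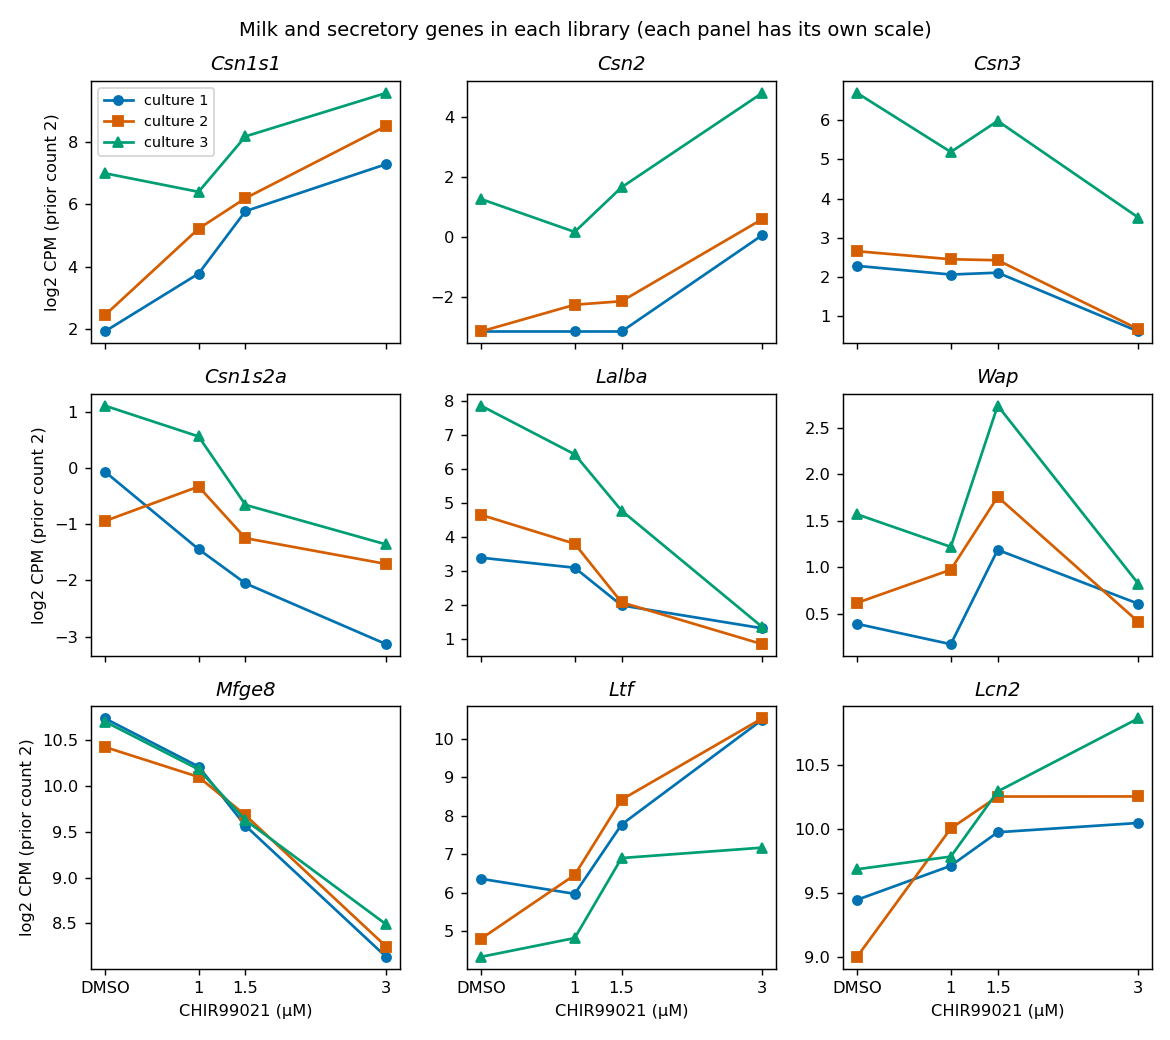
Log2 CPM (prior count of 2) of each gene in every library (vertical axes, 1 scale per gene) against the CHIR99021 dose in µM, with 1 line per culture. Csn1s1 climbs in every culture from 1 µM to 3 µM, Lalba and Mfge8 decline, and culture 3 starts above the other two for Csn1s1, Csn3 and Lalba.

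Csn1s1, an αs1-casein, was the casein with the highest level at 3 µM. Its level in culture 1 was 3.64, 13.6, 55 and 157 CPM in DMSO and at 1, 1.5 and 3 µM. In culture 2 the same order gave 5.28, 37.1, 73.5 and 368 CPM. Culture 3 began far higher, at 128 CPM in DMSO, and held 84.7, 292 and 771 CPM at the 3 doses. All 3 libraries at 3 µM lay above all 3 DMSO libraries, and within its own culture each was higher, by 43.1-fold, 69.8-fold and 6.01-fold. At 1 µM cultures 1 and 2 were above their vehicle and culture 3 was below it, so the direction at that dose was not shared.

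In the model with group means Csn1s1 missed the threshold at 3 µM (log2 fold change 3.23 ± 1.36 SE, adjusted p = 0.0633, edgeR). With the animal as a block it was called, at 4.22 ± 0.668 (adjusted p = 0.000459), and it kept the call when any 1 culture was left out of that fit. The step from 1.5 to 3 µM was 1.62 (adjusted p = 0.359), with the block 1.79 (adjusted p = 0.0333), a blocked call lost without culture 1 (adjusted p = 0.109) or culture 2 (adjusted p = 0.172). Csn1s1 was also called at 3 µM in DESeq2 (adjusted p = 0.0184). Without DMSO replicate 3 the model with group means called it at 3 µM (6.59, adjusted p = 0.00275) and at 1.5 µM (4.96, adjusted p = 0.0195). The 1.5 µM value with all libraries was 1.61 ± 1.28 (adjusted p = 0.375; with the block 2.43, adjusted p = 0.0120, and 0.119 or 0.0886 as adjusted p without culture 1 or 2).

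Csn2, the β-casein, was low in every group but climbed at the top dose. From vehicle to the top dose, culture 1 held 0, 0, 0 and 12 counts and culture 2 held 0, 2, 3 and 22. Culture 3 held 43, 18, 53 and 406 counts in the same order. Cultures 1 and 2 had no more than 3 counts below 3 µM, and culture 3 had more counts in vehicle than either of them at 3 µM, so the DMSO and 3 µM groups overlapped. With the 0 counts in vehicle set to a floor of 3, the 3 µM level was 7.06-fold higher in culture 1 and 4.63-fold higher in culture 2. In culture 3, from its own counts, it was 12.1-fold higher. The floor bounds the vehicle alone, and the counts of 12 and 22 at 3 µM carry counting error of their own. The fitted log2 change was 3.64 ± 2.04 (adjusted p = 0.150, edgeR), which ran from 0.54 without 3 µM replicate 3 to 10.46 without DMSO replicate 3, neither of them called. It was 3.94 ± 0.504 with the block (adjusted p = 0.000118). The blocked call was also made for the step from 1.5 to 3 µM (adjusted p = 0.000557), and both blocked calls were kept with each culture left out in turn.

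Csn3, the κ-casein that caps the micelle, went the other way at 3 µM. It stood at 4.75, 4.06, 4.20 and 1.41 CPM in culture 1 from DMSO to 3 µM. In culture 2 it stood at 6.19, 5.36, 5.26 and 1.48 CPM, and in culture 3 at 103, 36.4, 63.0 and 11.3 CPM. Cultures 1 and 2 were nearly level up to 1.5 µM and dropped at 3 µM, while culture 3 was lower at every dose than in vehicle and still ended above the vehicle level of the other two. The vehicle exceeded 3 µM by 3.37-fold, 4.20-fold and 9.14-fold within cultures 1, 2 and 3. The group means gave −3.01 ± 1.61 (adjusted p = 0.134, edgeR), which was −0.23 without DMSO replicate 3 and −4.73 without 3 µM replicate 3, neither of them called. The block gave −2.55 ± 0.303 (adjusted p = 8.23e-05), with the step from 1.5 to 3 µM at −2.10 (adjusted p = 0.000792 with the block). These 2 blocked calls were made without each culture in turn as well.

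Csn1s2a, an αs2-type casein, was scarce throughout. Its counts were 19, 5, 2 and 0 in culture 1, then 4, 14, 8 and 3 in culture 2, and 38, 24, 9 and 4 in culture 3, from DMSO to 3 µM. No library at 3 µM held more than 4 counts, and on the CPM scale those libraries (0 to 0.276 CPM) lay below the vehicle range of 0.406 to 2.05 CPM. It fell at 3 µM by 2.75 ± 0.940 on the log2 scale (adjusted p = 0.0283, edgeR). That call was lost without DMSO replicate 3 (−2.01, adjusted p = 0.116), without 3 µM replicate 1 (−2.25, adjusted p = 0.0716) or without 3 µM replicate 2 (−2.92, adjusted p = 0.0682), and without any 1 whole culture (adjusted p = 0.0662 to 0.135). With the block it was −2.83 at 3 µM (adjusted p = 0.00246) and −1.82 at 1.5 µM (adjusted p = 0.0162), the latter lost without culture 1 (adjusted p = 0.0829) or culture 3 (adjusted p = 0.113). Csn1s2b is a close relative of Csn1s2a, and reads shared by the pair could have been assigned to either.

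The balance among the caseins was therefore different within each library at 3 µM, a comparison that needs no scaling between libraries. Csn1s1 made up 39.4%, 44.4% and 54.3% of casein counts in DMSO in cultures 1, 2 and 3, and 98.5%, 99.2% and 95.1% at 3 µM. Csn3 made up 51.4%, 52.1% and 43.8% in DMSO and 0.885%, 0.397% and 1.40% at 3 µM. The ratio of Csn1s1 to Csn3 counts went from 0.766, 0.852 and 1.24 in DMSO to 111.4, 249.7 and 68.1 at 3 µM. The vehicle ratios of the 3 cultures were close to each other although culture 3 had 4384 casein counts in DMSO and cultures 1 and 2 had 208 and 117. The casein total at 3 µM was 2035, 5790 and 11741 counts.

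**Figure D2:**
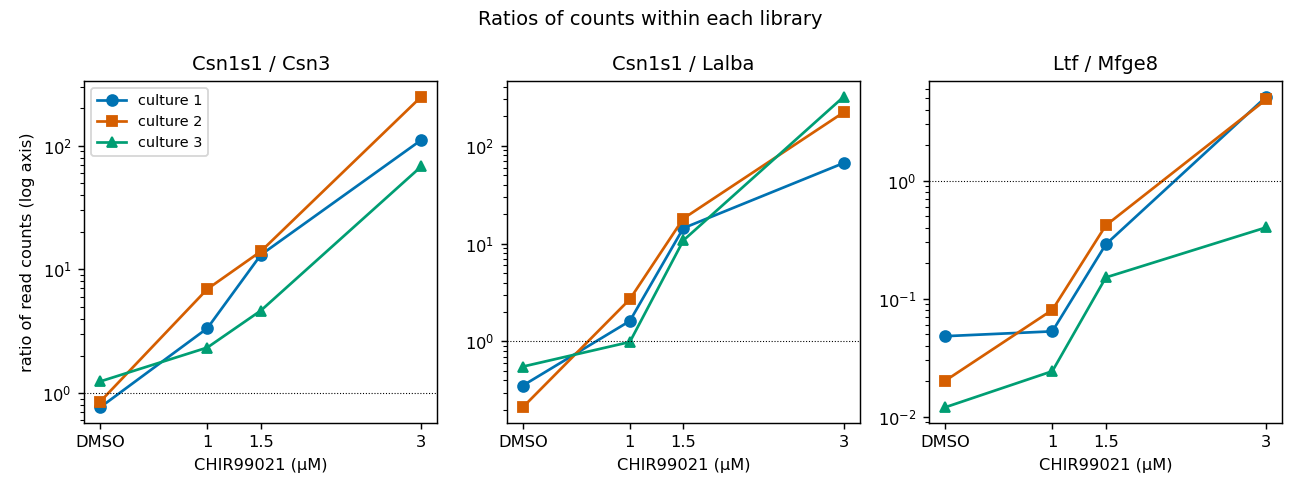
Ratios of read counts within each library (vertical log axes) against the CHIR99021 dose in µM, with 1 line per culture. Csn1s1 over Csn3 climbs from about parity in DMSO to between 68.1 and 249.7 at 3 µM, and Ltf over Mfge8 passes parity at 3 µM in cultures 1 and 2 while culture 3 reaches 0.402.

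Lalba declined with dose in all 3 cultures, from vehicle levels that were far apart. Its level in culture 1 was 10.3, 8.38, 3.82 and 2.35 CPM from DMSO to 3 µM, in culture 2 it was 24.9, 13.7, 4.07 and 1.67 CPM, and in culture 3 it was 232, 85.8, 27.1 and 2.42 CPM. Each culture was lower at every dose than at the dose before it. The 3 cultures spanned 10.3 to 232 CPM in vehicle and converged on 1.67 to 2.42 CPM at 3 µM, with no overlap between those groups. Vehicle exceeded 3 µM by 4.38-fold, 14.9-fold and 96.1-fold within cultures 1, 2 and 3.

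Lalba fell by 5.38 ± 1.51 on the log2 scale at 3 µM (adjusted p = 0.0116, edgeR). Without DMSO replicate 3 it was −3.06 and just missed the threshold (adjusted p = 0.0518), and without culture 2 it was −5.66 (adjusted p = 0.0862). At 1.5 µM it was −2.94 ± 1.30 (adjusted p = 0.120), with −0.62 without DMSO replicate 3 and −4.49 without 1.5 µM replicate 3, neither of them called. It was called at that dose with the block (−2.53, adjusted p = 0.00490; 0.0950 without culture 2) and in DESeq2 (adjusted p = 0.0468). The step from 1.5 to 3 µM was −2.44 (adjusted p = 0.209), with the block −1.99 (adjusted p = 0.0440), and was not called in blocked fits without culture 2 (adjusted p = 0.189) or culture 3 (adjusted p = 0.0990). The ratio of Csn1s1 to Lalba counts, both products of secretory cells under prolactin control, went within each library from 0.353, 0.212 and 0.553 in DMSO to 66.8, 220.8 and 319.1 at 3 µM.

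Wap was the member whose highest level was at the middle dose. It held 27, 20, 34 and 18 counts in culture 1, then 14, 38, 85 and 19 in culture 2, and 53, 39, 113 and 24 in culture 3. On the CPM scale all 3 cultures were highest at 1.5 µM, at 2.16, 3.27 and 6.55 CPM, against 1.20, 1.42 and 2.85 CPM in their own vehicle. At 3 µM they were back between 1.22 and 1.66 CPM, within the vehicle range and below all 3 libraries at 1.5 µM.

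The step of Wap from 1.5 to 3 µM passed the test (log2 fold change −1.48 ± 0.488, adjusted p = 0.0442, edgeR; with the block −1.38, adjusted p = 0.00405). This call held in only 4 of 12 fits with 1 library left out, those without DMSO replicate 1, 1 µM replicate 1, 1.5 µM replicate 1 or DMSO replicate 3. In the other fits the adjusted p reached 0.176, without 1.5 µM replicate 3, where the value was −0.93. The 1.5 µM level against DMSO missed with group means (1.12 ± 0.479, adjusted p = 0.108) and was called with the block (1.08, adjusted p = 0.00997), as was the step from 1 to 1.5 µM (1.17, adjusted p = 0.0159). Of these blocked calls, that at 1.5 µM was lost without culture 2 (adjusted p = 0.0995), that from 1 to 1.5 µM without any 1 culture (adjusted p = 0.0524 to 0.134), and that from 1.5 to 3 µM without culture 2 (adjusted p = 0.0666). At 3 µM against DMSO the log2 change was −0.36 ± 0.491 (adjusted p = 0.550).

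Mfge8, lactadherin, a phosphatidylserine-binding protein of the milk fat globule membrane, declined with dose in every culture and with little spread. It went from 1709.6 to 1186, 758 and 281 CPM in culture 1 and from 1376 to 1097, 820.1 and 303 CPM in culture 2. Culture 3 went from 1669 to 1161, 790.5 and 359 CPM. The 4 groups did not overlap at all, so every library of a dose lay below every library of the dose before it.

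Mfge8 fell by 1.01 ± 0.118 on the log2 scale at 1.5 µM (adjusted p = 0.000493, edgeR) and by 2.33 ± 0.123 at 3 µM (adjusted p = 1.32e-06), and both calls held in all 12 fits with 1 library left out. At 1 µM it was −0.47 ± 0.117 (adjusted p = 0.148), and was called there with the block (−0.46, adjusted p = 0.0418; 0.0762 to 0.318 with any 1 culture left out) and in DESeq2 (adjusted p = 0.00455). It was also the member that fell between 1 and 1.5 µM (−0.54 ± 0.118, adjusted p = 0.0299), a call lost without any 1 of the replicates 1, 2 and 3 at 1 µM or at 1.5 µM (adjusted p = 0.0714 to 0.124). From 1.5 to 3 µM it fell by 1.33 ± 0.119 (adjusted p = 0.000123).

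Ltf, lactotransferrin, rose at 3 µM and was higher there than in vehicle in every culture. Its level in culture 1 was 82.3, 62.8, 219 and 1447 CPM from DMSO to 3 µM, and in culture 2 it was 27.8, 88.2, 343 and 1483 CPM. Culture 3 went from 20.1 to 28.2, 119.7 and 144 CPM. Cultures 1 and 2 reached nearly the same level at 3 µM, and culture 3 stayed about where it was at 1.5 µM. All libraries at 1.5 and 3 µM lay above all DMSO libraries.

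At 3 µM Ltf rose by 4.56 ± 0.941 on the log2 scale (adjusted p = 0.00223, edgeR), or 17.6-fold, 53.3-fold and 7.19-fold within cultures 1, 2 and 3. The call held in all 12 fits with 1 library left out, and without the whole of culture 2 it was 3.96 (adjusted p = 0.0659). At 1.5 µM it was 2.38 ± 0.856 (adjusted p = 0.0628), and it was called with the block (2.45, adjusted p = 0.00546; 0.0697 without culture 2), in DESeq2 (adjusted p = 0.0227), without DMSO replicate 1 (3.25, adjusted p = 0.0378) and without 3 µM replicate 3 (2.35, adjusted p = 0.0207). The step from 1.5 to 3 µM was 2.17 ± 0.846 (adjusted p = 0.0779), with the block 1.82 (adjusted p = 0.0190), in DESeq2 2.18 (adjusted p = 0.0357) and without 3 µM replicate 3, the low library, 2.70 (adjusted p = 0.0136). With the block the step from 1 to 1.5 µM was called too (1.98, adjusted p = 0.0268). Both of these blocked step calls were lost without culture 1 or culture 2, with adjusted p-values of 0.139 and 0.123 from 1.5 to 3 µM and of 0.122 and 0.156 from 1 to 1.5 µM.

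Lcn2, lipocalin 2, was abundant in every library and rose modestly. It stood at 698, 839, 1006 and 1058 CPM in culture 1 from DMSO to 3 µM, and at 513, 1027, 1220.0 and 1221 CPM in culture 2. In culture 3 it stood at 824, 882, 1254 and 1862 CPM. No vehicle library reached the lowest treated library, and culture 3 continued upward at 3 µM where cultures 1 and 2 had levelled off. The increases within cultures at 3 µM were 1.51-fold, 2.38-fold and 2.26-fold.

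Lcn2 rose by 1.02 ± 0.228 on the log2 scale at 3 µM (adjusted p = 0.00334, edgeR), which held in all 12 fits with 1 library left out and missed without the whole of culture 2 (0.94, adjusted p = 0.0546). At 1.5 µM it rose by 0.77 ± 0.227 (adjusted p = 0.0296). That call was lost without DMSO replicate 1 (adjusted p = 0.0567), DMSO replicate 2 (0.58, adjusted p = 0.118), 1.5 µM replicate 2 (adjusted p = 0.0824) or 1.5 µM replicate 3 (adjusted p = 0.0705). Ltf and Lcn2 thus both rose at 3 µM while Mfge8 fell, and the ratio of Ltf to Mfge8 counts went from 0.0482, 0.0202 and 0.0120 in DMSO to 5.16, 4.89 and 0.402 at 3 µM in cultures 1, 2 and 3.

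**Figure D3:**
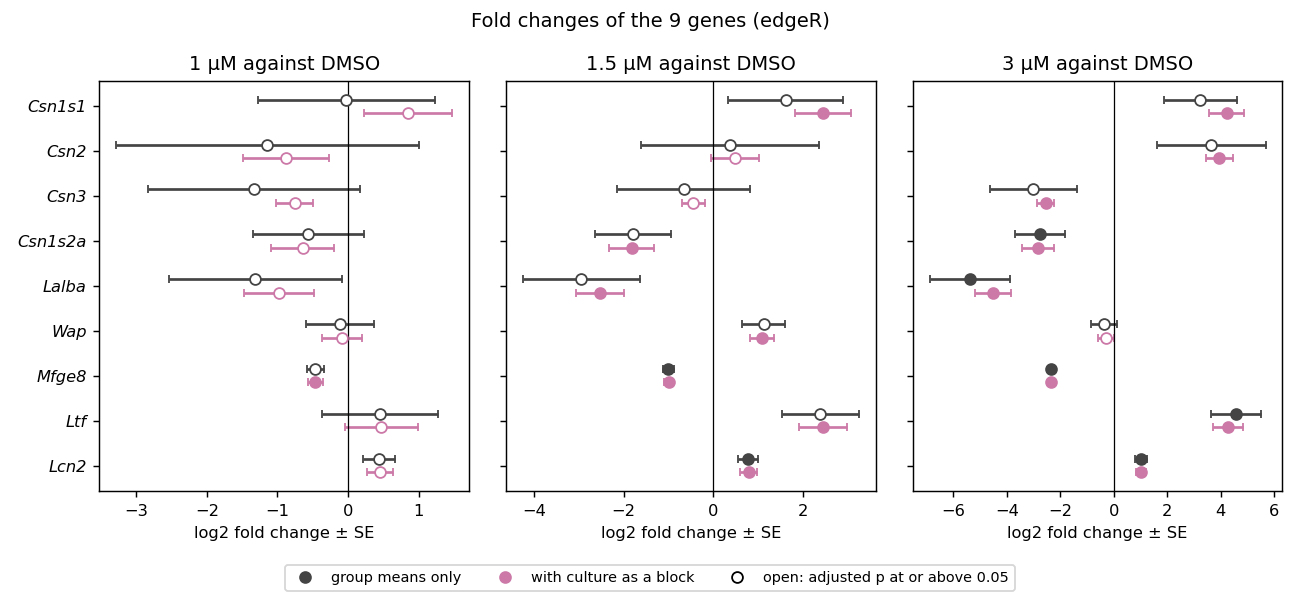
Log2 fold changes of the 9 genes against DMSO (horizontal axes, points with SE bars) at 1, 1.5 and 3 µM, in the model with group means and in the model with the animal as a block, with filled points where the adjusted p is under 0.05. The bars of Csn1s1, Csn2, Csn3 and Lalba shorten with the block, those of Mfge8 and Lcn2 hardly change.

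By dose, the counts of called members were 0 of 9 at 1 µM, where 0.242% of all tested genes were called, and 2 of 9 at 1.5 µM (Lcn2 higher, Mfge8 lower), where 27.3% were called (15.4% higher, 11.8% lower). At 1 µM, 1 member had an unadjusted p under 0.05 in edgeR, and DESeq2 and the block each called 1, Mfge8 (5.61% of all genes with the block). With the block 7 members were called at 1.5 µM against 46.7% of all genes. These were 4 higher (Csn1s1, Wap, Ltf and Lcn2; 22.3% of all genes) and 3 lower (Csn1s2a, Lalba and Mfge8; 24.3%). Between neighbouring doses 1 of 9 was called from 1 to 1.5 µM (5.43% of all genes; with the block 3 of 9 and 21.9%) and 2 of 9 from 1.5 to 3 µM (29.7%; with the block 7 of 9 and 46.7%). The comparisons with DMSO share the same 3 vehicle libraries and are not independent of each other. The 8 members called at 3 µM with the block were called again without each culture in turn, where 54.6%, 52% and 69.6% of all genes were called without culture 1, 2 or 3, whereas at 1.5 µM Mfge8 was the 1 member that was. From 1.5 to 3 µM the members called in all of these blocked fits were Csn2, Csn3 and Mfge8, and from 1 to 1.5 µM there were 0. Fewer genes of any kind were called there without culture 1 or 2. Without culture 1, 2 or 3 the shares of all genes were 27.5%, 21% and 48.7% at 1.5 µM. They were 23.2%, 20% and 50.8% from 1.5 to 3 µM, and 3.99%, 0.743% and 26.3% from 1 to 1.5 µM. Without culture 2 the model with group means kept 1 of its 5 calls at 3 µM, that of Mfge8, with 31.1% of all genes called. Without culture 3, which stood apart, that model called 7 of 9 at 3 µM, with 58.1% of all genes called, among them Csn1s1 (5.92, adjusted p = 0.000633, edgeR), Csn2 (7.39, adjusted p = 0.0109) and Csn3 (−1.91, adjusted p = 0.00139), with Lalba at −3.12 (adjusted p = 0.00226) and Ltf at 4.71 (adjusted p = 0.000684).

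Compared per kilobase of the longest coding transcript, the order of the members changed with dose. In DMSO it was Mfge8 at 746 ± 85.6 CPM per kb, Lcn2 at 741 ± 171, Lalba at 116 ± 161, Csn1s1 at 32.4 ± 50.7, Csn3 at 23.9 ± 35.4 and Ltf at 15.8 ± 12.4, followed by Wap at 3.31 ± 1.63, Csn1s2a at 1.19 ± 0.923 and Csn2 at 0.581 ± 1.01. The ranges over cultures overlapped for Mfge8 and Lcn2 and for all neighbours from Lalba to Ltf and from Wap to Csn2. Those of Lcn2 and Lalba, and of Ltf and Wap, did not. Such ranges leave out that the genes were measured in the same libraries, and some of these pairs kept 1 order in every DMSO library. Csn1s1 had fewer counts than Lalba in each, at ratios of 0.353, 0.212 and 0.553 in cultures 1, 2 and 3. Wap had 27, 14 and 53 counts there, against 19, 4 and 38 of Csn1s2a. At 3 µM it was Lcn2 at 1508 ± 464 CPM per kb, Ltf at 374 ± 278, Csn1s1 at 306 ± 221 and Mfge8 at 148 ± 18.9, and no other member had a mean above 7.62. Lcn2 lay above the rest, the ranges of Ltf, Csn1s1 and Mfge8 overlapped, and so did those of the last 5 members apart from Csn1s2a, whose range of 0 to 0.300 lay below the others.

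The 3 cultures differed in how much of most of these genes they made. At equal dose, 7 of 9 members differed between cultures (edgeR, F test of the culture terms, adjusted p under 0.05), where 28.8% of all tested genes did. The smallest adjusted p-values were those of Csn3 (4.57e-05), Csn2 (0.000148), Lalba (0.00297) and Csn1s1 (0.00663), with culture 3 highest in DMSO for each. Wap (0.0201), Ltf (0.0306) and Csn1s2a (0.0344) also passed, and Lcn2 (0.209) and Mfge8 (0.483) did not.

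Of these culture differences, those of Csn3, Csn2, Lalba and Csn1s1 held in all 12 fits with 1 library left out. That of Wap held in 7, and was lost without any of DMSO, 1 µM and 1.5 µM replicate 1 or DMSO and 1.5 µM replicate 3 (adjusted p up to 0.0799). Those of Ltf and Csn1s2a held in 5 each, and both were lost without 1 µM replicate 1, without replicate 2 at 1 or 1.5 µM, or without replicate 3 in DMSO or at 1 or 1.5 µM. Ltf was further lost without DMSO replicate 1 and Csn1s2a without 1.5 µM replicate 1, with adjusted p-values up to 0.0705 for Ltf and 0.122 for Csn1s2a. For Ltf the order of the cultures was not that of the caseins, since culture 3 had the lowest level at every dose.

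The slope of log2 level per µM was −0.90, −0.75 and −0.76 for Mfge8 in cultures 1, 2 and 3. It was 1.82, 1.94 and 0.94 for Csn1s1, 1.45, 1.95 and 1.02 for Ltf, and −0.76, −1.37 and −2.23 for Lalba. Lalba was thus steepest in culture 3, where it began highest. Csn1s1 and Ltf were shallowest in culture 3, where Csn1s1 began highest and Ltf began lowest. A difference in slope between cultures was called for 0 of 9 members and for 0 of 15316 genes (edgeR), with 1 member, Lalba, and 1230 genes at an unadjusted p under 0.05. Without the filter on low counts 2 genes were called, none of them a member.

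Other genes of lactation were examined through lists. Of 13 further milk proteins 11 could be tested, and at 3 µM 1 rose and 1 fell, with 29.9% of all tested genes higher and 27.7% lower. Lpo, lactoperoxidase, stood at 0.369 ± 0.143 CPM in vehicle and rose to 2.02 ± 0.758 CPM (on the log2 scale 2.40, adjusted p = 0.00488, edgeR), and the mucin Muc15 fell from 1168 ± 379 to 459 ± 289 CPM (−1.35, adjusted p = 0.0346). The call of Muc15 was lost without DMSO replicate 1 or 2 or without 3 µM replicate 2 (adjusted p up to 0.104). With the block 2 rose and 3 fell. Of the other 3 most abundant genes of the list, Wfdc18 was at −0.32 (adjusted p = 0.664).

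The phosphoprotein Spp1 of that list was at −0.98 (adjusted p = 0.338) and was called without 3 µM replicate 3, at −3.27 (adjusted p = 0.000196). The copper carrier Cp was at −0.74 (adjusted p = 0.0561; with the block adjusted p = 0.0437) and was called without DMSO replicate 2 (adjusted p = 0.0341) or 3 µM replicate 3 (adjusted p = 0.00935). At 1.5 µM 1 rose, the bile-salt-stimulated lipase Cel, from 2.73 ± 0.304 CPM in DMSO to 43.4 ± 51.7 CPM (3.98, adjusted p = 0.00654). The untested pair were Glycam1, with 4 to 19 counts in DMSO and 0 in all 3 libraries at 3 µM, and Csn1s2b. The median log2 change of the 11 at 3 µM was −0.32.

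Genes of milk fat and lactose synthesis were mostly lower. Of 15 tested, 8 fell and 3 rose at 3 µM, and 8 fell and 0 rose at 1.5 µM, with median log2 changes of −1.54 and −1.29. Of all tested genes 27.7% fell and 29.9% rose at 3 µM, and 11.8% fell and 15.4% rose at 1.5 µM. Btn1a1, butyrophilin, a fat globule membrane protein like Mfge8 that is named here after its values were seen, went from 389 ± 47.2 CPM in DMSO to 3.37 ± 0.638 CPM at 3 µM (−6.85, adjusted p = 7.74e-07, edgeR). Lpl, lipoprotein lipase, went from 4747 ± 2353 to 123.7 ± 46.4 CPM (−5.26, adjusted p = 8.73e-05), and the fatty acid carrier Cd36 from 1663 ± 809 to 37.3 ± 24.3 CPM (−5.48, adjusted p = 0.000239). Fasn, fatty acid synthase, fell by 2.11 (adjusted p = 0.00165), most of it by 1.5 µM, where it was −1.93 (adjusted p = 0.00748).

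The lipid droplet protein Plin2 was at −0.93 at 3 µM (adjusted p = 0.0508, edgeR). It was called there with the block (adjusted p = 0.0200) and without DMSO replicate 1, DMSO replicate 3 or 3 µM replicate 3 (adjusted p = 0.0114 to 0.0403). The 3 that rose were the lipid droplet protein Cidea (2.93, adjusted p = 0.000186), the glucose transporter Slc2a1 (2.34, adjusted p = 0.000507) and the UDP-galactose transporter Slc35a2 (0.41, adjusted p = 0.0317). The last call was lost without replicate 1 or 2 of DMSO or of 3 µM (adjusted p up to 0.132).

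Adipocytes express Lpl, Cd36, Fasn and Plin2 as well, and their own markers moved in the same direction. The share of all tested genes called lower at 3 µM was 27.7%, and 34.8% with the block. Adipoq, Plin1, Cfd and Lep were 4 of 4 called lower at 3 µM. They summed to between 703 and 1790.4 CPM in DMSO and between 1.79 and 34.7 CPM at 3 µM. None of the 6 fibroblast markers was called, though 5 were lower with the block, and their sum ran from 1610.3 to 20096 CPM in DMSO and from 172 to 4375 CPM at 3 µM. Macrophage markers, 6 of 7 called lower, summed to between 277 and 2937 CPM in DMSO and between 41.6 and 132 CPM at 3 µM, and endothelial markers, 3 of 3 called lower, to between 211 and 455 and between 22.4 and 75.7 CPM. The part of these cells in the result was not tested. In bulk RNA, fewer cells of a type and less RNA per cell cannot be told apart.

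**Figure D4:**
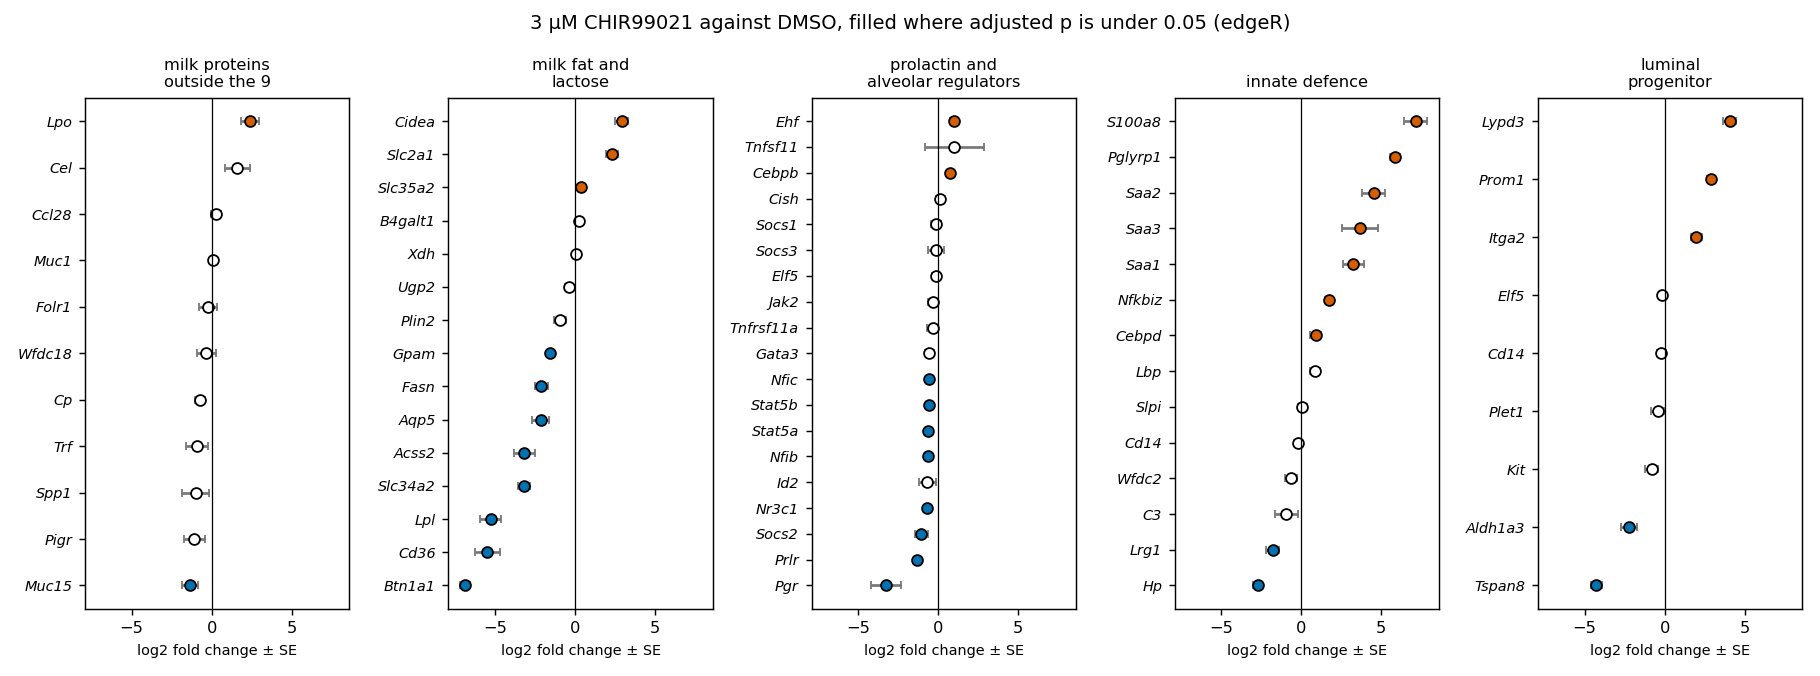
Log2 fold changes at 3 µM against DMSO (horizontal axes, points with SE bars) of the tested genes of the 5 lists, 1 panel per list, with filled points where the adjusted p is under 0.05. S100a9 is not drawn because all its DMSO libraries were at 0. Most fat and lactose genes lie to the left of 0 and most innate defence genes to the right.

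Of 19 tested regulators of the alveolar programme, 8 fell and 2 rose at 3 µM, with a median log2 change of −0.54. The share called was near the 57.5% of all tested genes (27.7% lower, 29.9% higher), so the count itself is not a result about the regulators. The prolactin receptor Prlr was at −1.29 (adjusted p = 0.00042, edgeR), Stat5a at −0.61 (adjusted p = 0.000739) and Stat5b at −0.58 (adjusted p = 0.00547), 3 genes named for their role after their values were seen. Nfib, among the 4 most abundant of the list, fell by 0.64 (adjusted p = 0.0114). The 2 that rose were the ETS factor Ehf (1.00, adjusted p = 0.00807) and Cebpb (0.77, adjusted p = 0.000264).

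Elf5, a luminal progenitor and alveolar factor, had a log2 change of −0.14 at 3 µM (adjusted p = 0.614, edgeR), whose sign turned without DMSO replicate 1 (0.04) or 3 µM replicate 3 (0.07). Id2 was at −0.67 (adjusted p = 0.313; with the block −0.67, adjusted p = 0.0163). At 1.5 µM 2 of the 19 rose, again Cebpb and Ehf, and 1 fell, Nfic. The luminal keratins Krt8, Krt18 and Krt19 also fell at 3 µM, 3 of the 6 luminal epithelial markers. The other 3 were not called and had higher means at 3 µM than in DMSO. Epcam stood at 604 ± 137 against 466 ± 126 CPM, Elf3 at 19.6 ± 2.23 against 16.2 ± 4.88, and Cldn3 at 124 ± 37.4 against 68.7 ± 28.2. With the block 1 marker of the list was called higher and 3 lower. The sum of the 6 was 2366 to 3931 CPM in DMSO and 1719.9 to 2045 CPM at 3 µM. Basal markers (4 higher, 3 lower of 7) summed to 2033 to 3304 and 14534 to 31374 CPM, and squamous markers (7 of 7 higher) to 27.8 to 59.8 and 5334 to 25929 CPM in the same groups. Beside these marker counts, 29.9% of all tested genes were called higher and 27.7% lower at 3 µM (34.1% and 34.8% with the block). The part of a shift in cell type in the milk gene results was not tested.

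Genes of innate defence, the class to which Ltf and Lcn2 belong, were mostly higher. Besides secretions the list holds the receptor Cd14 and the regulators Cebpd and Nfkbiz, the last named here after its values were seen. Both regulators are among the 8 that rose at 3 µM. Of 15 tested, 8 rose and 2 fell at 3 µM, and 7 rose and 0 fell at 1.5 µM, with a median log2 change of 0.90 at 3 µM. Of all tested genes 29.9% rose and 27.7% fell at 3 µM, and 15.4% rose and 11.8% fell at 1.5 µM. Saa1, an acute phase apolipoprotein, rose from 80.7 ± 40.4 to 765 ± 438 CPM (3.24, adjusted p = 0.00221, edgeR). S100a9, a subunit of calprotectin named here after its values were seen, had 0 counts in all 3 DMSO libraries and 1549 to 2848 counts at 3 µM. Cebpd, an acute phase transcription factor also named after its values were seen, rose with an adjusted p just under the threshold of 0.05 (edgeR), and kept the call in 3 of 12 fits, those without replicate 1 at 1, 1.5 or 3 µM.

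The 2 that fell were the haemoglobin scavenger Hp, from 1040.0 ± 232 to 157 ± 47.3 CPM (−2.73, adjusted p = 3.61e-05, edgeR), and Lrg1 (−1.78, adjusted p = 0.00385). Of the other abundant genes of the list, the complement component C3 was at −0.95 (adjusted p = 0.279; with the block −0.68, adjusted p = 0.0423). The protease inhibitor Slpi was at 0.07 (adjusted p = 0.855), a value whose sign turned with scaling by library size alone (−0.12) and without replicate 2 or 3 of DMSO or replicate 3 of 3 µM (−0.35 to −0.09).

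Neutrophils make Ltf, Lcn2, S100a8 and S100a9 too. The 8 neutrophil markers in the table summed to 9.51 to 65.3 CPM in DMSO and to 2.35 to 6.07 CPM at 3 µM. Most of that sum was Fcgr3 alone, so the fall of the sum is largely that of 1 gene. Fcgr3 held 31.7 ± 26.2 CPM of a mean sum of 37.0 CPM in DMSO. At 3 µM it held 2.49 ± 2.07 of 4.18 CPM. Among the defining markers, Ngp and Elane had 0 counts in all 3 libraries at 3 µM, as did Ly6g, and Mpo had at most 2. Elane had only 1 to 3 counts in each DMSO library, so its 0 at 3 µM shows no clear fall. Of the 4 that could be tested, Camp, Csf3r and Fcgr3 fell and Cxcr2 rose at 3 µM. In that comparison 27.7% of all tested genes fell and 29.9% rose. The part of these cells in the Ltf and Lcn2 results was not tested.

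Some genes outside the 9 followed the members closely over the 12 libraries. These are described by Pearson's r of log2 CPM among tested genes averaging at least 50 counts, with libraries that share cultures, doses and depth. The 2 nearest to Mfge8 were Ramp1 (0.99) and Casp12 (0.99), those nearest to Ltf were Prkch (0.98) and Hira (0.98), and those nearest to Csn1s1 were Arhgap4 (0.97) and Fkbp11 (0.95). Csn3 lay nearest to Foxk1 (0.98) and the iron carrier Trf (0.97), Csn2 to Mmp3 (0.95) and Pdpn (0.95), and Csn1s2a to Fat4 (0.94) and Podn (0.93). Lalba lay nearest to Cutal (0.97) and Folr2 (0.97), Lcn2 to Gcn1l1 (0.94) and Ktn1 (0.94), and Wap to 2810468N07Rik (0.87) and Nek4 (0.85). No 2 members shared a nearest gene, and Wap had the loosest match. Each pair is the top 2 of 12438 or 12439 genes searched over 12 libraries, so the high r values arise in part from the search. Shared control of these genes was not tested.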

How the data were processed

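Bulk RNA was measured in 12 libraries, 3 per group. The authors deposited a table of raw counts, 1 row for each Ensembl gene, beside a second table of log2 values, per its contents log2 of the count scaled to 10 M plus 1, of which 0 differed when recomputed from the counts and which was not used further. The submitters' processing notes name TopHat2 2.1, Bowtie 1.1.0, HTSeq, DESeq2 and GRCm38/mm10, without a role. Whether counting used the strand is not given in the sources used here. Of the members only Csn3 overlaps a gene on the other strand, an antisense transcript listed with at most 1 count.

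Genes passing filterByExpr were normalised with TMM and fitted with edgeR 4.0.16 (glmQLFit, robust; glmQLFTest, two-sided; R 4.3.3) in a model of 4 group means that used all 12 libraries. Benjamini and Hochberg adjustment ran over 15316 genes, with a threshold of 0.05. SE is the absolute log2 fold change divided by the square root of F. Cultures were compared by adding replicate terms to the group means, and slopes by letting each replicate have its own dose slope. The scripts were tested on simulated data. No molecular identifiers are described, so counts and the floor of 3 counts per library cover counting error only.

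Replicate numbers mark animals, per the series' design. Deviations from group means correlated in all 18 same-number pairs of libraries (0.177 to 0.840). The median in 36 other pairs was −0.212. Deviations within a group sum to 0, which pulls the other pairs below 0 when same-number pairs correlate, so that median is not a separate observation. The block on the animal, DESeq2 1.42.0, other scalings, no filter, fits of 2 groups alone and fits with libraries or cultures left out were the alternatives. Blocked fits with a culture left out were added after seeing the data.

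The members and lists were chosen with earlier results of these data known. All 9 members are named, as are the 4 genes of highest mean CPM of each list, those called in a direction with 5 or fewer, and the 2 nearest genes of each member; others are marked. Coordinates are those of the deposited table, and 24902 of its 25210 identifiers are in GENCODE M21 (GRCm38), which gave transcript lengths. Figures were drawn with matplotlib 3.10.9.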

Additional observations from a re-analysis of the deposited data

How the results depend on the processing

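The replicate block, in which each animal is its own control, moved most counts. Genes called with it were 859 at 1 µM (37 without), 7147 at 1.5 µM (4177), 3351 from 1 to 1.5 µM (831) and 7149 from 1.5 to 3 µM (4544), and members called were 1, 7, 3 and 7, with 8 at 3 µM. It changed no other call of a named gene than those printed beside it. In blocked fits without culture 1, 2 or 3, members called were 8, 8 and 8 at 3 µM, 5, 2 and 6 at 1.5 µM, 0, 0 and 1 at 1 µM, 0, 0 and 4 from 1 to 1.5 µM, and 5, 3 and 6 from 1.5 to 3 µM. Those fits called 60, 0 and 1556 genes at 1 µM, 617, 114 and 4055 from 1 to 1.5 µM, 7489 at 1.5 µM without culture 3 and 7814 from 1.5 to 3 µM without culture 3. Csn1s1 at 1 µM turned from −0.03 to 0.85 with the block (0.55, 0.22 and 2.38 without culture 1, 2 or 3) and to 0.036 with library size only; of these the value without culture 3 was called. Blocked fits also turned Elf5 (0.067) and Slpi (−0.48) without culture 3 and Wfdc18 (0.48) without culture 1.

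DESeq2 called 485 genes and 1 member at 1 µM, 4 members at 1.5 µM and 1634 genes from 1 to 1.5 µM. Without the filter 494 genes were called from 1 to 1.5 µM, 1 member from 1.5 to 3 µM and 2 genes for slopes. Fits of 2 groups alone called 0 genes at 1 µM, and 2852 genes and 1 member from 1.5 to 3 µM. Scaling by library size only moved the median of all genes to −0.23 at 3 µM against DMSO and to −0.28 from 1.5 to 3 µM, and turned Slpi at 3 µM (−0.12). Leaving out 1 library or 1 culture gave 0 to 119 genes at 1 µM, 457 to 5085 at 1.5 µM, 4769 to 9391 at 3 µM, 0 to 1508 from 1 to 1.5 µM, 345 to 5682 from 1.5 to 3 µM and 2658 to 5860 between cultures. Members called ran from 1 to 5 at 1.5 µM, 1 to 7 at 3 µM, 0 to 1 from 1 to 1.5 µM, 1 to 5 from 1.5 to 3 µM and 4 to 7 between cultures, with 0 at 1 µM. Values that turned in those fits, none of them called, ranged from −0.86 to 3.34 for Csn1s1 at 1 µM, −4.05 to 3.45e-05 for Csn3 from 1.5 to 3 µM and, at 3 µM, −0.60 to 0.10 for Wap, −0.38 to 0.067 for Elf5, −0.73 to 0.013 for Plet1, −0.51 to 0.62 for Slpi and −0.79 to 0.46 for Wfdc18. The causes were not tested. Changes in genes at a few counts, as for Csn1s2a, Csn2 and Wap, are limited by depth.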

Other observations

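Luminal progenitors, the cells from which alveoli arise, were examined through 9 marker genes. At 3 µM 3 of them rose and 2 fell, where 57.5% of all tested genes were called (edgeR, adjusted p under 0.05). Lypd3 rose from 14.5 ± 7.69 to 244.9 ± 11.1 CPM (SD, n = 3; log2 fold change 4.07, adjusted p = 2.3e-05, edgeR), Prom1 rose by 2.89 (adjusted p = 1.54e-05) and the integrin subunit Itga2 rose by 1.98 (adjusted p = 0.000641). Tspan8 fell from 170 ± 42.5 to 8.83 ± 3.63 CPM (−4.27, adjusted p = 8.53e-06), and the retinaldehyde dehydrogenase Aldh1a3 fell by 2.23 (adjusted p = 0.0033). The receptor Kit was at −0.81 (adjusted p = 0.114) and passed without DMSO replicate 3 (adjusted p = 0.0430). Plet1 was at −0.44 (adjusted p = 0.391) with a sign that turned without DMSO replicate 1 (0.01), and the receptor Cd14 was at −0.20 (adjusted p = 0.534). At 1.5 µM Lypd3 and Prom1 rose and Aldh1a3 fell, and with the block the counts at 3 µM were again 3 and 2.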
